A study of Mus musculus with 6 samples.

Results

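The mRNAs of 10 replication licensing genes were followed in fully-grown mouse oocytes (FGOs) at the germinal vesicle (GV) stage, either wild type (WT) or lacking Lsm14b (Lsm14b-KO). The genes were the 6 helicase subunits Mcm2, Mcm3, Mcm4, Mcm5, Mcm6 and Mcm7, the replisome gene Mcm10, the helicase loaders Cdc6 and Cdt1, and Gmnn, which encodes geminin. They were chosen by symbol, for their role in licensing, from the 24255 genes of the expression table. FGOs have completed growth and wait in meiotic prophase, and LSM14B binds RNA in the oocyte cytoplasm. The Lsm14b-KO oocytes came from females homozygous for Lsm14b tm1a(KOMP)Mbp, a knockout-first insertion that carries a reporter cassette and keeps a conditional option. The allele is present in every cell of the animal, and the mice were kept on a C57BL/6J background. The WT oocytes carried no such insertion, and females of both genotypes received PMSG (5 IU), a gonadotropin that drives follicle growth, 46 h before collection. Each genotype gave 3 RNA-Seq libraries of 20 oocytes. The number of females behind a library and their age are not given in the sources used here, so p-values measure the spread between these libraries, which may be technical. In pools of 20 oocytes, less mRNA in each oocyte and fewer oocytes that hold the mRNA cannot be told apart.

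Licensing is the step that prepares a replication origin for firing once in each cell cycle. The origin recognition complex, CDC6 and CDT1 load the MCM2-7 ring onto DNA, and MCM10 later helps the ring to open and unwind DNA in S phase. Geminin binds CDT1 and blocks a second round of loading. The oocyte passes through both meiotic divisions without replicating its DNA, and the early embryo copies its genome with proteins and mRNAs of maternal origin. Maternal mRNAs are often kept with a short poly(A) tail and extended later through cytoplasmic polyadenylation elements close to the polyadenylation signal.

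The single abundant mRNA among the 10 was Gmnn, and the end of its mRNA is shown because it holds elements of that kind. The 30 bases below lie in the 3′ UTR in the last exon of Gmnn (GRCm38, chr13:24751918-24751947, minus strand), written 5′ to 3′ as the mRNA strand with T for U. The capitals mark TTTTAAT and TTTTAT, a pair of cytoplasmic polyadenylation element sequences.
Gmnn: tgtgtatTTTTAATccgTTTTATgtaaata
TTTTAT ended 80 nt before the annotated end of the transcript, and an AATAAA polyadenylation signal began 31 nt before it. Among the 10 genes, TTTTAT stood in the last 100 nt of 3 transcripts and TTTTAAT in the last 100 nt of 4, and Gmnn was the 1 gene with both. The corresponding shares of the 5909 tested genes with an annotated 3′ UTR were 15.1%, 5.84% and, for both, 1.35%. A match describes the letters and does not show that an element is used.

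Around the gene start, many of the licensing genes shared letters bound in other settings by E2F factors, the transcription factors of the G1 to S transition. The motifs searched on both strands were TTTCCCGC, TTTCGCGC, TTTGCCGC and TTTGGCGC, in windows from 250 bases before to 50 after the RefSeq gene start. RefSeq windows (GRCm38.p6) were on hand for 8 of the 10 genes, without Mcm4 and Gmnn, and 6 of these 8 held such a motif (Mcm3, Mcm5, Mcm6, Mcm7, Cdc6 and Cdt1). Of all 32851 windows, 2.26% held one. Mcm5, Mcm6, Mcm7 and Cdc6 held a motif before the RefSeq start, Mcm7 held a further one after it, and those of Mcm3 and Cdt1 lay after it. In another annotation, GENCODE, Mcm7 and Cdc6 start earlier, so all their motifs lie inside the GENCODE genes. Mcm2 and Mcm10 held none of these letters. CCAAT, a common promoter element, was found on either strand in 6 of the 8 genes and in 37.4% of all windows. One window each of 3 helicase subunits is shown, 5′ to 3′ on the strand of the gene, with the motif in capitals. They lie at chr1:20820263-20820292 (Mcm3, minus strand), chr8:75109345-75109374 (Mcm5, plus strand) and chr1:128359797-128359826 (Mcm6, minus strand). Counted from the gene start, with negative positions before it, the motif shown began at 38 in Mcm3, at −153 in Mcm5 and at −110 in Mcm6.
Mcm3: cgggaaaacttgggaagtTTTGGCGCcaag
Mcm5: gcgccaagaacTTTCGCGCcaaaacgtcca
Mcm6: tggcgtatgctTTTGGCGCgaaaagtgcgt
In Mcm5 and Mcm6 the motif shown overlaps a further one on the opposite strand, so the letters are not independent matches. Of the genes with a motif, Mcm5, Mcm6 and Cdt1 reached 1 FPKM in the oocyte, and Mcm3, Mcm7 and Cdc6 stayed under it in every library.

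Levels are given in FPKM, which divides the fragments of a gene by its transcript length and by the library total. Even so, FPKM levels in WT were lower in longer transcripts over all tested genes, which limits comparisons between genes of different length. A gene that reached 1 FPKM in any library was tested with limma on log2(FPKM + 1), and p-values were adjusted over the 6398 genes that met this minimum. Of the 10 licensing genes 7 did so. Lsm14b itself, the targeted gene, measured 2.77, 3.98 and 1.72 FPKM in WT and 0, 0 and 0.102 FPKM in Lsm14b-KO (limma, adjusted p = 0.0038). All 12 oocyte markers reached 1 FPKM, while 3 of 12 cumulus and granulosa markers did so. The summed level of the cumulus and granulosa list was 9.73 to 13.5 FPKM in WT and 6.13 to 10.2 FPKM in Lsm14b-KO, most of it Cyp19a1, and Amh, Foxl2, Inhba and Ptx3 were at 0 in all 6 libraries. The 6 red blood cell markers were at 0 throughout, and 3 of 4 theca and 3 of 4 leukocyte markers were as well. From the size of the smallest FPKM steps, and with WT replicate 1 set to 1, the relative depth was 1 to 1.14 in WT and 1.33 to 2.18 in Lsm14b-KO. Lsm14b-KO replicate 1 was closer to the WT libraries (Pearson r over genes 0.952 to 0.954) than replicate 2 (0.867 to 0.890) or replicate 3 (0.917 to 0.929). Results that rest on 1 library are therefore also given without it.

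In WT FGOs, Gmnn stood at 358.5, 360.1 and 329.8 FPKM, a mean of 349 ± 17.1 (SD, n = 3), and 94.4% of the tested genes had a lower WT mean. Its WT mean was 104-fold that of Mcm5, which was next among the 10 genes. The other 9 had WT means from 0.153 to 3.37 FPKM and no value over 4.97 FPKM in any library. Among the 10 genes an abundant mRNA was thus seen for the inhibitor of licensing, and not for the helicase subunits, Cdc6, Cdt1 or Mcm10. Gmnn also has the shortest transcript of the 10, 963 nt against 2189 to 4867 nt. Over all tested genes the median WT level was 8.1 FPKM in the shortest length class and 1.5 FPKM in the longest. The part of length in the contrast between Gmnn and the other genes was not tested. After Gmnn, the order of WT means was Mcm5, Mcm2, Cdt1, Mcm4, Mcm6, Mcm10, Cdc6, Mcm3 and Mcm7. In this order only Gmnn and Mcm5, Mcm4 and Mcm6, and Mcm3 and Mcm7 were neighbours whose 3 WT values did not overlap. The order in Lsm14b-KO again began with Gmnn and Mcm5 and ended with the genes under 1 FPKM, but Mcm4 moved up to follow Mcm5.

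**Figure D1:**
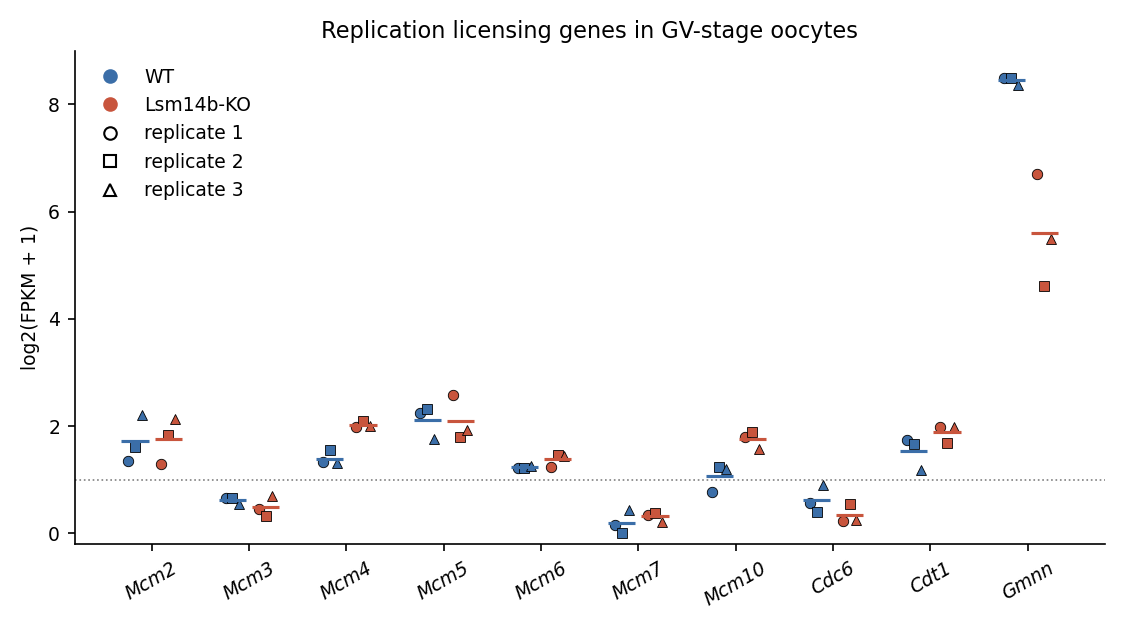
Level of the 10 licensing mRNAs in each library, as log2(FPKM + 1), with WT in blue, Lsm14b-KO in red, a symbol for each replicate number, a bar at the mean of the 3 libraries, and a dotted line at 1 FPKM. Gmnn stands far above the other 9 genes in every library and is lower in all 3 Lsm14b-KO libraries, whereas Mcm4 and Mcm10 are the genes whose Lsm14b-KO points all lie above the WT points.

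Of the 6 helicase subunits, 4 were tested and 1 of these, Mcm4, passed. Mcm2, which sits at the gate of the ring, measured 1.54, 2.05 and 3.61 FPKM in WT and 1.46, 2.57 and 3.39 FPKM in Lsm14b-KO. Mcm5, its partner at that gate, measured 3.74, 3.98 and 2.40 FPKM in WT and 4.97, 2.45 and 2.79 FPKM in Lsm14b-KO. Mcm6, from the catalytic side of the ring, measured 1.33, 1.33 and 1.39 FPKM in WT and 1.36, 1.76 and 1.71 FPKM in Lsm14b-KO. The values of the genotypes overlapped for each of these 3 genes. The log2 fold change of Lsm14b-KO over WT was 0.04 for Mcm2 (95% interval −0.66 to 0.74, limma, adjusted p = 0.934). For Mcm5 it was −0.01 (−0.65 to 0.63, adjusted p = 0.974), and for Mcm6 it was 0.15 (−0.27 to 0.56, adjusted p = 0.551). Changes inside these intervals remain compatible with the values of 3 libraries per genotype at this depth, and the interval was narrower for Mcm6 than for Mcm2 and Mcm5.

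Mcm4, which encodes a catalytic subunit of the ring, was higher in Lsm14b-KO FGOs. It measured 1.51, 1.92 and 1.47 FPKM in WT and 2.96, 3.26 and 2.99 FPKM in Lsm14b-KO. All 3 Lsm14b-KO values lay above all 3 WT values. The means were 1.63 ± 0.250 and 3.07 ± 0.164 FPKM (SD, n = 3 each), a 1.88-fold difference, and the log2 fold change on the log2(FPKM + 1) scale was 0.63 (SE 0.18, 95% interval 0.21 to 1.05, limma, adjusted p = 0.0449). The depth behind the values was 19.7 to 28.7 estimated fragments in WT and 51.4 to 85.2 in Lsm14b-KO. The call was close to the threshold: Mcm4 was higher in each of 14 alternative fits but passed in 4 of them. It did not pass without WT replicate 1, 2 or 3 or without Lsm14b-KO replicate 2 or 3, where the log2 fold change was 0.59 to 0.71 and the highest adjusted p was 0.147, nor after a correction for transcript length and GC content (0.50, adjusted p = 0.078).

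Mcm3 and Mcm7 complete the ring and did not reach the minimum for testing. Mcm3 measured 0.574, 0.587 and 0.464 FPKM in WT and 0.360, 0.246 and 0.617 FPKM in Lsm14b-KO, from 5.18 to 14.6 estimated fragments per library. Mcm7 measured 0.118, 0 and 0.342 FPKM in WT and 0.265, 0.302 and 0.162 FPKM in Lsm14b-KO, from at most 6.22 estimated fragments in any library. Values of the genotypes overlapped in both genes. In a fit of all genes above 0 the log2 fold changes were −0.14 for Mcm3 (adjusted p = 0.596) and 0.12 for Mcm7 (adjusted p = 0.569). Fragments of Mcm7 may also be shared with its processed pseudogene Gm5487, 97.7% identical over 2157 nt, and with Ap4m1, which it overlaps, so its level is uncertain.

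Taken as an assembly, the 6 helicase subunits had a summed level of 8.81, 9.87 and 9.67 FPKM in WT and 11.4, 10.6 and 11.7 FPKM in Lsm14b-KO. The ring holds 1 copy of each subunit, but the mRNAs were far from equal. Mcm5 made up 35.8% ± 9.63 of the sum in WT and Mcm2 25.2% ± 10.7, whereas Mcm3 made up 5.76% ± 0.872 and Mcm7 1.63% ± 1.79 (SD, n = 3). The share of Mcm4 was 17.1%, 19.4% and 15.2% in WT and 26.0%, 30.8% and 25.7% in Lsm14b-KO, with no overlap between the genotypes. The share of Mcm6 was 14.3% ± 0.806 and 14.4% ± 2.34. These shares do not depend on how a library was scaled, and they are given as a description with no test.

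**Figure D2:**
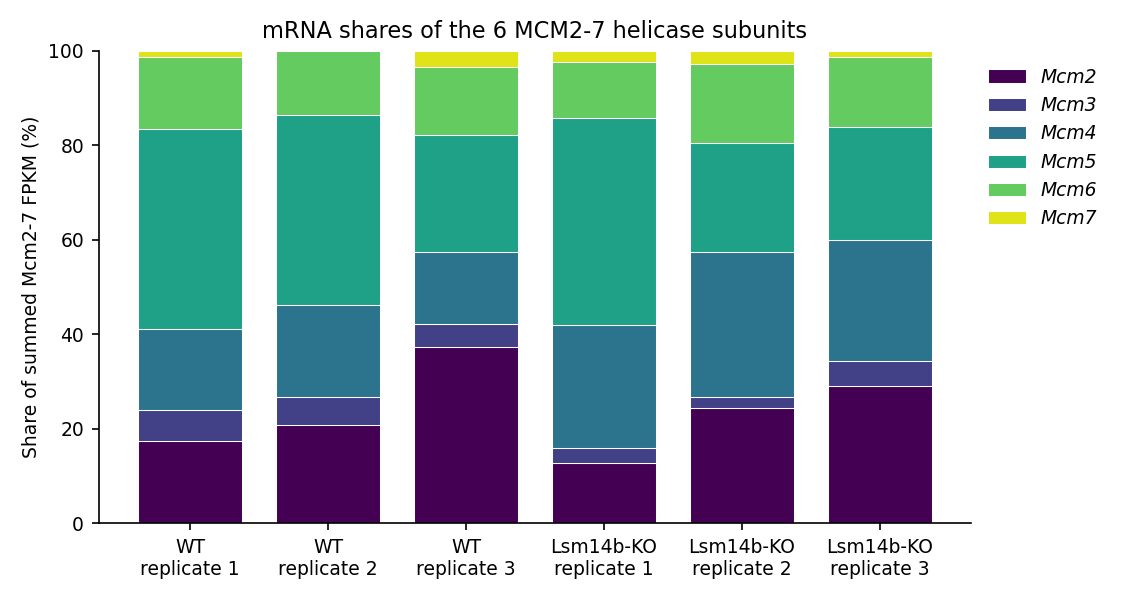
Share of each helicase subunit in the summed FPKM of Mcm2 to Mcm7, in percent, as 1 stacked bar per library. The Mcm4 band is 15.2% to 19.4% in the WT libraries and 25.7% to 30.8% in the Lsm14b-KO libraries, while the Mcm2 and Mcm5 bands vary more between libraries of the same genotype than between genotypes.

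Mcm10, a scaffold that joins the unwinding helicase and the polymerases, measured 0.699, 1.36 and 1.28 FPKM in WT and 2.46, 2.71 and 1.97 FPKM in Lsm14b-KO. The genotypes did not overlap. The means were 1.11 ± 0.362 and 2.38 ± 0.378 FPKM (SD, n = 3 each), and the log2 fold change was 0.69 (SE 0.21, 95% interval 0.19 to 1.18). The adjusted p of 0.0544 in limma missed the threshold of 0.05. Scaling every library to the same FPKM sum, as TPM does, was the 1 of 14 alternatives in which Mcm10 passed (1.14, adjusted p = 0.0361), and there the median of all tested genes moved up by 0.475 as well. Relative to that median, the log2 difference of Mcm10 was 0.76 as deposited and 0.74 after the scaling, and that of Mcm4 was 0.71 and 0.74.

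The loaders were low in both genotypes. Cdt1, which brings the MCM2-7 ring to the origin, measured 2.35, 2.17 and 1.27 FPKM in WT and 2.94, 2.21 and 2.94 FPKM in Lsm14b-KO. The values overlapped, with a log2 fold change of 0.35 (95% interval −0.17 to 0.87, limma, adjusted p = 0.268). Cdc6, the ATPase that acts with it, measured 0.471, 0.310 and 0.859 FPKM in WT and 0.178, 0.454 and 0.190 FPKM in Lsm14b-KO. This amounts to 4.03 to 15.1 estimated fragments per library, and the values overlapped. Cdc6 was not tested for lack of level, and in the fit of all genes above 0 its log2 fold change was −0.27 (adjusted p = 0.403). Its processed pseudogene Gm9430 is 95.2% identical over 1528 nt, and Cdt1 overlaps the gene model Gm20388, so some fragments of either loader may be counted elsewhere.

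Gmnn, the inhibitor, was the 1 mRNA of the 7 tested that fell. Against 358.5, 360.1 and 329.8 FPKM in WT, it measured 103.5, 23.4 and 44.1 FPKM in Lsm14b-KO. The highest Lsm14b-KO value, in replicate 1, was still under every WT value, and the Lsm14b-KO libraries differed from each other far more than the WT libraries did. The means were 349 ± 17.1 and 57.0 ± 41.6 FPKM (SD, n = 3 each), which is 6.13-fold lower in Lsm14b-KO. The log2 fold change was −2.85 (SE 0.50, 95% interval −4.01 to −1.69, limma, adjusted p = 0.0092). These values rest on 948 to 1147 estimated fragments per WT library and 126 to 384 per Lsm14b-KO library. Gmnn was lower in each of 15 alternative fits, with log2 fold changes from −3.40 to −2.17, and passed in 11 of them. It missed the threshold without WT replicate 1, 2 or 3 (adjusted p = 0.0566, 0.0523 and 0.0519) and without Lsm14b-KO replicate 3 (0.0563). The library nearest to WT was Lsm14b-KO replicate 1, and when it was left out the log2 fold change was −3.40 (adjusted p = 0.000412).

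Called genes among the licensing mRNAs were therefore 2 of the 7 tested, with Mcm4 higher and Gmnn lower, and the genotypes did not overlap in 3 (Gmnn, Mcm4 and Mcm10). Over all tested genes 21.6% were called, 6.38% higher and 15.2% lower, and 45.0% did not overlap, 19.1% with Lsm14b-KO higher and 26.0% with Lsm14b-KO lower. Of all calls 29.5% were higher, against 63.1% once every library was scaled to the same sum, 42.4% after quantile normalization and 41.2% after the correction for length and GC content. The licensing counts are near these shares and say nothing particular about the 7 genes as a group. Their median log2 fold change was 0.15, and that of all tested genes was −0.08.

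Licensing depends on the balance of the CDT1 and geminin proteins, which RNA-Seq does not measure. The ratio of both mRNAs was computed in each library, where the scaling of the library cancels, and it describes the mRNAs only. Gmnn over Cdt1 was 152, 166 and 261 in WT and 35.2, 10.6 and 15.0 in Lsm14b-KO. Every Lsm14b-KO library was under every WT library. On the log2 scale the ratio was lower by 3.40 in Lsm14b-KO, and an exact permutation test gave p = 0.10 (two-sided), and with 3 libraries in each group no smaller p can be reached. Of this difference, log2 FPKM of Gmnn differed by −2.88 between the genotypes and that of Cdt1 by 0.52. Set against the summed helicase subunits, Gmnn was 40.7, 36.5 and 34.1 times their level in WT and 9.10, 2.21 and 3.79 times in Lsm14b-KO. Gmnn mRNA thus exceeded Cdt1 mRNA per length in all 6 libraries.

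**Figure D3:**
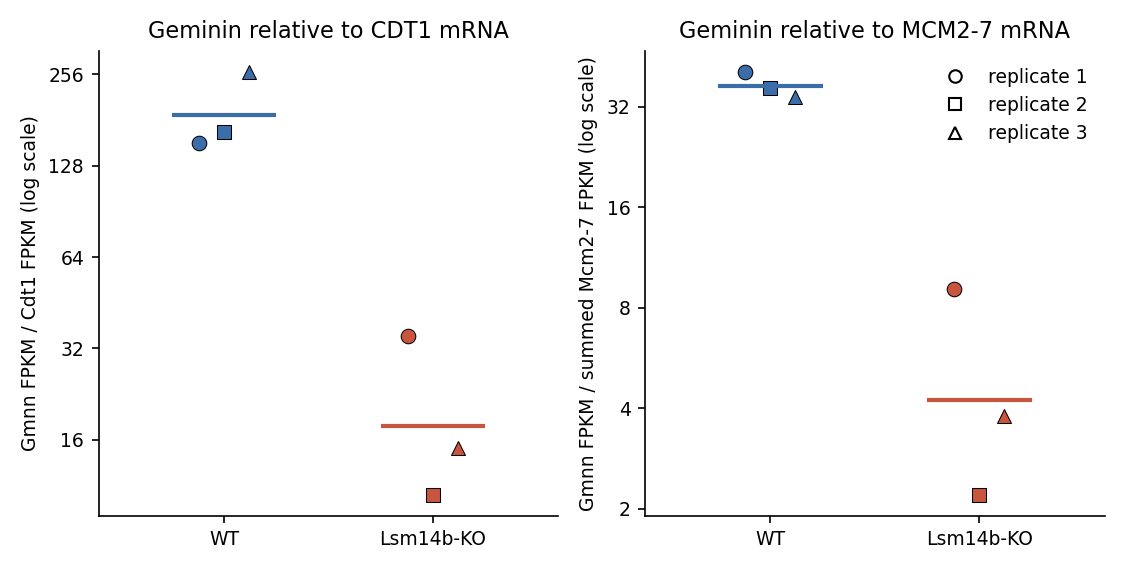
Ratio of Gmnn FPKM to Cdt1 FPKM (left) and to the summed FPKM of Mcm2 to Mcm7 (right) in each library, on log axes, with a symbol for each replicate number and a bar at the geometric mean of 3 libraries. WT libraries lie at 152 to 261 on the left and 34.1 to 40.7 on the right, and Lsm14b-KO libraries at 10.6 to 35.2 and 2.21 to 9.10, replicate 1 being the highest of them in both panels.

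The mRNAs whose pattern over the 6 libraries was most like that of Gmnn were Cmc1, Dkk1 and Mrpl22. The measure was the root mean square difference in log2(FPKM + 1) after the WT mean of each gene was subtracted, which was 0.0883 for Cmc1, 0.140 for Dkk1 and 0.159 for Mrpl22. Cmc1, whose product helps to assemble a respiratory complex, measured 303.5, 261.1 and 238.8 FPKM in WT and 75.3, 18.7 and 32.2 FPKM in Lsm14b-KO. Mrpl22, for a mitochondrial ribosomal protein, and Dkk1, for a secreted WNT inhibitor, likewise had the lowest value in Lsm14b-KO replicate 2 and the highest Lsm14b-KO value in replicate 1. The summed FPKM of all genes had the same order of Lsm14b-KO libraries, so the order is not particular to these mRNAs. How many of all tested genes had it was not counted.

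The licensing genes were then set beside 67 other genes of the replication pathway in 6 lists, of which 43 reached the minimum. Of these 43, 2 rose, 7 fell and 34 did not pass, beside 6.38% higher and 15.2% lower over all tested genes, so the count is near the background. Donson and Pold4, counted among the 7 that fell, met the minimum only through WT. Their median log2 fold change was 0.09, against −0.08 over all tested genes. The 9 calls became 24 without Lsm14b-KO replicate 1. They became 2 without WT replicate 1 or 3, 5 without WT replicate 2, 6 without Lsm14b-KO replicate 2 and 3 without Lsm14b-KO replicate 3. Among the 6 tested origin recognition genes, 1 passed: Orc6, the small subunit of the complex, measured 948, 982 and 803 FPKM in WT and 366, 57.4 and 125 FPKM in Lsm14b-KO (log2 fold change −2.71, SE 0.61, limma, adjusted p = 0.0206). Orc6 was thus above Gmnn in WT, so an abundant mRNA was found on the loading side as well. As for Gmnn, Lsm14b-KO replicate 1 was the highest and replicate 2 the lowest of the Lsm14b-KO libraries. This order is not particular to the pair: Tipin, Rpa3 and the summed FPKM of all genes had it too. Orc6 missed the threshold without any one of the WT libraries or without Lsm14b-KO replicate 3 (highest adjusted p 0.0929), and in the fit of all genes above 0 (0.0595). The list's median was 0.49, opposite in sign to Orc6. None of the 7 tested licensing inhibitors and genes of CDT1 turnover passed, with a median of 0.36. The highest of them, Skp1a, a subunit of a ubiquitin ligase, measured 15542, 14798 and 13047 FPKM in WT and 22477, 3662 and 7836 FPKM in Lsm14b-KO, and its genotypes overlapped (−0.74, adjusted p = 0.356). Without Lsm14b-KO replicate 1, Skp1a did pass (−1.43, adjusted p = 0.0119). Neither of the 2 tested MCM relatives passed, and Mcmbp, whose product binds MCM subunits, measured 7.62, 8.16 and 9.29 FPKM in WT and 5.50, 11.4 and 10.0 FPKM in Lsm14b-KO (0.04, adjusted p = 0.921). Mcmdc2, Mcidas, Gmnc and Pold1 were at 0 in all libraries.

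The kinase that fires licensed origins was split between its subunits. Dbf4, the regulatory subunit, fell from 18.3, 17.7 and 15.1 FPKM in WT to 4.77, 4.74 and 5.73 FPKM in Lsm14b-KO (log2 fold change −1.57, SE 0.22, limma, adjusted p = 0.0043). Cdc7, the catalytic subunit, rose from 0.486, 1.45 and 0.566 FPKM to 1.75, 2.65 and 2.28 FPKM (0.84, SE 0.25, adjusted p = 0.0473). Neither pair of groups overlapped. Dbf4 passed without any one library, whereas Cdc7 missed the threshold without WT replicate 1 or 3 or Lsm14b-KO replicate 2 or 3 (highest adjusted p 0.161). Dbf4 missed it under scaling of all libraries to 1 common sum (−0.95, adjusted p = 0.0514). Of the 10 tested genes of helicase activation, 1 rose and 2 fell, the other being Donson (−0.77, limma, adjusted p = 0.0322), where 6.38% and 15.2% of all tested genes did. Donson measured 1.59, 1.28 and 1.42 FPKM in WT and 0.275, 0.691 and 0.337 FPKM in Lsm14b-KO. It met the minimum of 1 FPKM only through WT, the group where it is higher, so its call is weak support for a fall. Gins1, a subunit of the active helicase and the most abundant of this list, measured 79.3, 81.5 and 73.6 FPKM in WT and 67.1, 36.4 and 55.8 FPKM in Lsm14b-KO and did not pass (−0.59, adjusted p = 0.191), except without Lsm14b-KO replicate 1 (−0.78, adjusted p = 0.0317).

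Downstream of licensing, 2 of 6 tested polymerase and primase genes fell and none rose (15.2% and 6.38% over all tested genes). They were Pole4 (−1.36, limma, adjusted p = 0.0331) and Pold4 (−0.96, adjusted p = 0.031), accessory subunits of the polymerases epsilon and delta. The means of Pole4 were 923 FPKM in WT and 380 FPKM in Lsm14b-KO. Pold4 measured only 2.37, 1.02 and 2.25 FPKM in WT and 0.582, 0.404 and 0.355 FPKM in Lsm14b-KO. Like Donson, Pold4 met the minimum for testing only through WT, so its call is weak support for a fall. Of 12 tested fork factors 1 rose and 2 fell, beside the same shares, and with lists this small none of these counts says anything particular about its list. Tipin, a fork protection gene, fell from 908, 905 and 843 FPKM to 231, 70.6 and 82.7 FPKM (−2.99, SE 0.46, limma, adjusted p = 0.0056), and it passed in all 15 alternatives. In the single-strand binding complex, Rpa3, its small subunit, fell by 2.30 on the log2 scale (adjusted p = 0.0177) and Rpa1, its large subunit, rose by 1.26 (adjusted p = 0.0146). Rpa2, the remaining subunit, did not pass (0.58, adjusted p = 0.235), and its genotypes overlapped. After the correction for length and GC content, Rpa3 was at −1.37 (adjusted p = 0.0076) and Rpa1 at 1.01 (0.022). Without 1 library, Pole4 missed the threshold for all libraries but Lsm14b-KO replicate 1, Pold4 for WT replicates 1 and 3 and Lsm14b-KO replicates 2 and 3, and Donson and Rpa3 for each WT library and Lsm14b-KO replicate 3. Rpa1 missed it without WT replicate 1 or 3. The highest adjusted p in these fits was 0.137. Scaling to 1 common sum also ended the calls of Donson, Pold4 and Pole4 (adjusted p = 0.228, 0.0968 and 0.0507), quantile normalization that of Pole4 (0.0783), and the correction for length and GC content those of Pold4 and Cdc7 (0.199 and 0.0595). The fit of all genes above 0 ended those of Cdc7, Donson, Pold4 and Pole4 (0.105, 0.0659, 0.0733 and 0.0713). Cdc7 also missed the threshold with no trend (0.0575) and with a pseudocount of 0.1 or 0.01 (0.0512 and 0.0633).

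**Figure D4:**
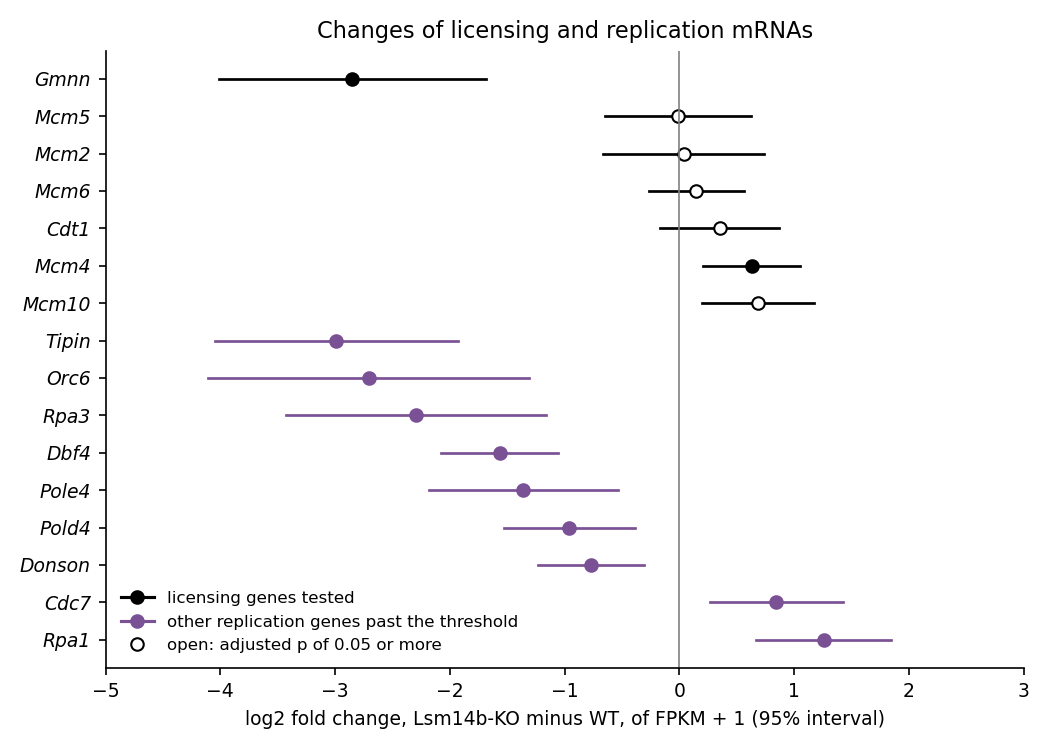
Log2 fold change of Lsm14b-KO over WT on the log2(FPKM + 1) scale, with 95% intervals from limma (n = 3 libraries per genotype), for the 7 licensing genes tested (black) and the 9 other replication genes that passed the threshold (purple). Filled points have an adjusted p under 0.05. Gmnn lies at −2.85 beside Tipin, Orc6 and Rpa3, and the other licensing genes lie between −0.01 and 0.69.

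Transcript length moved with these differences. The Gmnn transcript is 963 nt long, at percentile 14.1 of the tested genes, whereas the other 9 licensing transcripts measure 2189 to 4867 nt. Over all tested genes the median log2 fold change rose through 5 classes of transcript length, from −0.62 in the shortest to −0.32, 0.01, 0.20 and 0.30 in the longest. The median WT level fell through the same classes, from 8.1 to 5.3, 3.0, 2.0 and 1.5 FPKM. Length and level therefore cannot be told apart in this relation. Among the 43 replication genes, the 7 that fell had transcripts of 670 to 2402 nt and the 2 that rose had transcripts of 3129 and 5077 nt. Spearman's rho of length and log2 fold change was 0.508 across the 43 genes, which share libraries and are not independent replicates. Over the 6321 tested genes with a known length it was 0.363, so the relation is not particular to replication genes. After correction of each library for length and GC content, Gmnn was still lower by more than the spread between libraries (−2.19, adjusted p = 0.0038). Under that correction the log2 fold change of Mcm4 was 0.50 and that of Mcm10 was 0.45 (adjusted p = 0.156), and neither passed. Measured from the median of the tested genes, the difference of Gmnn was −2.77 as deposited and −2.26 after the correction. More abundant mRNAs were lower in general. Among the 2560 genes with a mean of at least 5 FPKM, Gmnn included, the median log2 fold change was −0.45, against −0.08 over all tested genes. In that fit 179 genes were called higher and 683 lower.

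**Figure D5:**
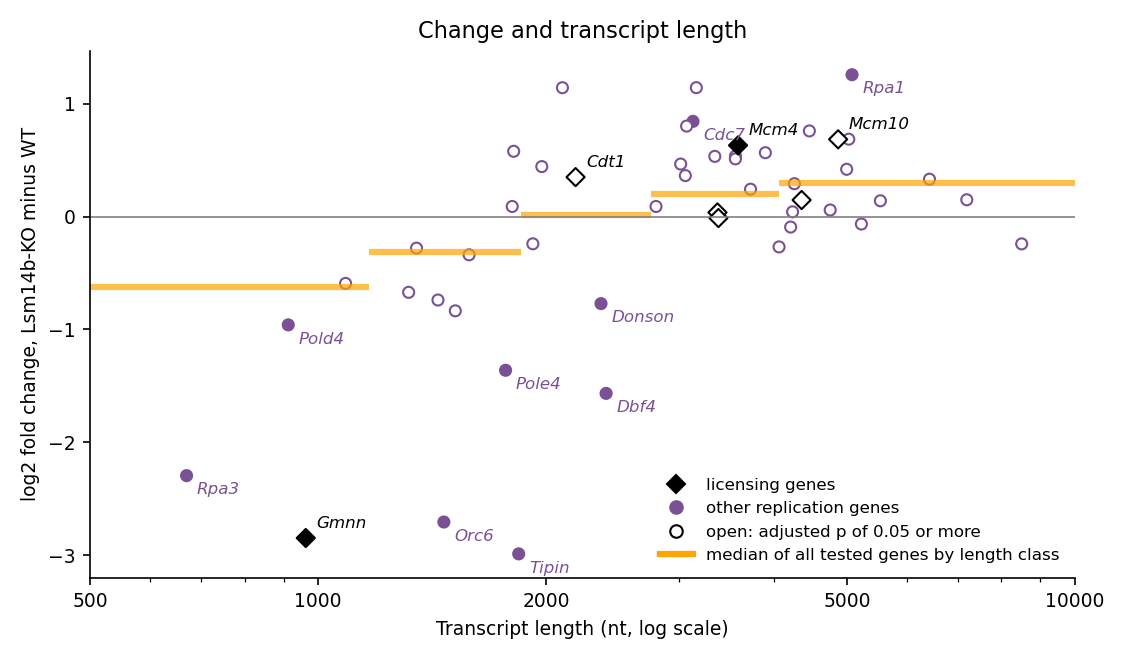
Log2 fold change of Lsm14b-KO over WT against transcript length in nt (log axis) for the 7 licensing genes tested (black diamonds) and 43 other replication genes (purple circles), filled where the adjusted p is under 0.05, with orange bars at the median of all tested genes in each of 5 length classes. The bars rise from −0.62 to 0.30, and Gmnn, at 963 nt, lies well under the bar of its length class.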

How the data were processed

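RNA of 20 oocytes per library was amplified by Smart-seq2, and neither strandedness nor the annotation is given in the sources used here. The authors aligned reads to mm10 with TopHat2 (version 2.0.13) and deposited FPKM values, 1 column per library. Cufflinks (version 2.2.1), Cuffnorm and Cuffdiff are the further tools named. The authors' deposited comparison columns (log2 ratios, p-values and q-values) were not used. Each FPKM value depends on the total of its library. Any scaling between libraries by the named tools was not examined, and it would also enter the relative depths and estimated fragments.

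Groups came from the labels. limma 3.58.1 in R 4.3.3 (eBayes with trend, genotype as the only term) was fitted to log2(FPKM + 1) of the 6398 genes that reached 1 FPKM in any of the 6 libraries, two-sided, with Benjamini-Hochberg adjustment over all of them and a threshold of 0.05. The fit was tested on simulated data. Fragments per gene were estimated from the smallest FPKM steps and an effective length (transcript length less 250 nt), and they cover counting only. Positions, lengths and GC content came from GENCODE vM21 (GRCm38, the assembly of mm10) for 98.8% of tested genes, and promoter windows from RefSeq. Copies were searched with blastn 2.17.0 (at least 95% identity over 200 nt).

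The members and lists were chosen with earlier results of these data known. Named genes were all 10 members, Lsm14b, the listed replication genes past the threshold, the highest gene of each list, and the 3 mRNAs most like Gmnn. The alternatives tried were other pseudocounts, filters, scalings and eBayes settings, a replicate block, a length and GC correction, and leaving out each library.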

Additional observations from a re-analysis of the deposited data

How the results depend on the processing

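Leaving out 1 library gave 315 to 2898 called genes over all tested (1383 with all 6), 0 to 2 licensing genes (2 with all 6) and 2 to 24 of the other replication genes (9 with all 6), with the highest counts without Lsm14b-KO replicate 1. No licensing gene passed without WT replicate 1, 2 or 3 or Lsm14b-KO replicate 3. All genes above 0 gave 720 calls, 1 licensing gene and 4 other replication genes, and a mean of at least 5 FPKM gave 862, 1 and 5. The licensing count was also 1 with a pseudocount of 0.01, with the length and GC correction and with no trend. The log2 difference of the Gmnn to Cdt1 ratio was −3.90 to −3.03 without 1 library. On the scale of FPKM + 1, the log2 difference of this ratio was −3.20 before and −2.53 after the length and GC correction. It stayed negative under each alternative run.

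Directions that turned were all of values that did not pass. Mcm2 was at −0.12, Mcm6 at −0.050 and Mcmbp at −0.15 after the length and GC correction. Scaling to the same sum gave 0.52 for Mcm5 and 0.090 for Gins1, and quantile normalization gave 0.059 for Mcm5 and 0.057 for Skp1a. Without 1 library, Mcm2 ranged from −0.15 to 0.28, Mcm5 from −0.25 to 0.14 and Mcmbp from −0.14 to 0.32. The cause was not tested.

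With the replicate number as a block, 1244 genes, 1 licensing gene (Gmnn) and 8 other replication genes passed, and Mcm4 (adjusted p = 0.0769) and Donson (0.0594) did not. Correlations of the same-numbered libraries' deviations were 0.190, −0.128 and 0.0179, and not every library correlated best with its own number. The deviations were taken from the mean of only 3 libraries, so these values cannot tell whether same-numbered libraries were collected together. Depth limits Mcm3, Mcm7 and Cdc6, where single fragments set the values.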
